A study of Mus musculus with 9 samples.

Results

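Miat is a gene of long non-coding RNA (lncRNA) on mouse chromosome 5. Its transcripts were taken as every row of the lncRNA table on chromosome 5 that overlapped 112.20 to 112.24 Mb of mm10, which gave 12 of the 15589 transcripts listed. Of these, 9 carry the Ensembl identifier of Miat (ENSMUSG00000097767, minus strand). The other 3 lie on the plus strand, 2 from 1700028D13Rik beyond the 3′ end of Miat and 1 from Gm26953 opposite its last exon. The locus was chosen by the difference in its summed counts between stearic acid and control cells of this experiment, so that difference is described here without a test. The cells were β-TC6, a line derived from an insulin-secreting tumour of transgenic mice, in which viral T antigen was driven by the insulin promoter. There were 3 libraries of cells given stearic acid, 3 of cells given palmitic acid and 3 of control cells, which are labelled untreated. Both acids were used at 400 µmol/L, and cells stayed in them for 24 h in medium with 1.3% bovine serum albumin. The sources used here leave unstated whether albumin was added to control cells, so albumin and acid cannot be told apart in a comparison with control. All 9 libraries come from 1 line, and no label tells whether replicates came from separate cultures, so p-values measure only the spread between these libraries, which may be technical.

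Miat, also known as Gomafu or Rncr2, is a spliced lncRNA that stays in the nucleus and is best known from neurons and the retina. It carries copies of the sequence UACUAAC, which matches the branch point sequence of introns, and in mammalian cells these copies bind the splicing factor SF1. The human gene was named after variants linked with myocardial infarction.

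Most Miat counts in these libraries were assigned to transcripts that hold the last exon, where the UACUAAC copies lie, so both stretches with copies are shown. They are from GENCODE release M21 (GRCm38, the build of mm10), on the minus strand, 5′ to 3′, with TACTAAC in capitals. The first stretch is chr5:112217309-112217460 and the second chr5:112216752-112216812, both in exon 7 of transcript Miat-205. They overlap the short annotated RNAs Gm27627 and Gm27882.
Miat repeat stretch 1: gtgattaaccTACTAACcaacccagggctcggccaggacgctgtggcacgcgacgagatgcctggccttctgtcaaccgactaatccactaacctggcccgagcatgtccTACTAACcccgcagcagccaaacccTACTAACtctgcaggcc
Miat repeat stretch 2: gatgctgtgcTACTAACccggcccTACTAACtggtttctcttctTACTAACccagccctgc

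Each stretch holds 3 copies, and Miat-205 has 6 in all. Searched on the sense strand alone, with copies allowed to overlap, TACTAAC was found in 2.6% of 30258 GENCODE lncRNA transcripts, and in 30.6% of the 49 that are 8000 bases or longer. No lncRNA transcript had more than 6 copies. Of the 3 transcripts with 6 copies, 2 were Miat, Miat-205 and Miat-201. A match is a description of these letters and does not show binding.

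The promoter of Miat in RefSeq (GRCm38.p6, chr5:112228899-112229198, minus strand) is shown because the transcript with the most counts did not begin there by its listed coordinates. No start of transcription was mapped here. Capitals mark the 50 bases downstream of the RefSeq start.
Miat promoter: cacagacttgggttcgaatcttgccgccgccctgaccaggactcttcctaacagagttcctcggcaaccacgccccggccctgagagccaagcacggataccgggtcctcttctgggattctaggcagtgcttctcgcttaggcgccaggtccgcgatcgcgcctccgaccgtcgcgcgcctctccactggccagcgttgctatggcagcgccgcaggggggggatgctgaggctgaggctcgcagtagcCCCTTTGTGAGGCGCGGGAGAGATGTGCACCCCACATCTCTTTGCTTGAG

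The promoter held 25 CG pairs, against a median of 7 over 32851 RefSeq promoters of the same length, of which 16.9% held more. On either strand it held 0 copies of TATAAA, found in 13.6% of these promoters, and 0 of CCAAT, found in 37.4%. Of the 9 Miat transcripts, 2 had their 5′ end inside this window, 3 upstream of it and 4 downstream.

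The 9 Miat transcripts differ mainly in whether they reach the last exon, which spans 112213228 to 112220235, 7008 bases or 76.5% of Miat-205. The 3 that reach it are TCONS_00203906, TCONS_00203907 (Miat-205, 7 exons, 9163 bases) and TCONS_00203908 (Miat-201, 8758 bases). The spans of the other 6 end upstream of it and so do not reach the TACTAAC copies. They are TCONS_00203912, TCONS_00203913 (Miat-202, 747 bases), TCONS_00203914 (Miat-203), TCONS_00203915 (Miat-206, 357 bases), TCONS_00203916 and TCONS_00203917 (Miat-204). A transcript was matched to GENCODE where its ends, strand and number of exons were the same, and 6 of the 9 Miat transcripts had such a match.

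TCONS_00203906, the one with the most counts over all 9 libraries, has no such match. Its span of 3 exons (112213228 to 112222239) begins 6709 bases downstream of the RefSeq start, inside the intron before exon 5 of Miat-205. Its exon limits are not in the table, so its place among the transcripts with the last exon rests on its span and length. The length was read from the ratio of count to FPKM (the count scaled to transcript length and library size), which rises linearly with length. Calibrated on 330 to 447 transcripts per library of known length, this gave 8420 bases as the median over 7 libraries (range 8409 to 8436). For Miat-205, whose annotated length is 9163 bases, the same calculation gave 9162 (4 libraries). Miat-201, annotated at 8758 bases, came out at 8790 (1 library). Both were themselves among the transcripts used for calibration in some libraries, so these values are not an independent check. The last 3 exons of Miat-205, with exon 5 extended upstream by 365 bases to the start of TCONS_00203906, add up to 8420 bases as well. The unmatched TCONS_00203912 and TCONS_00203916 came out at 2125 and 1586 bases (2 libraries each).

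**Figure D1:**
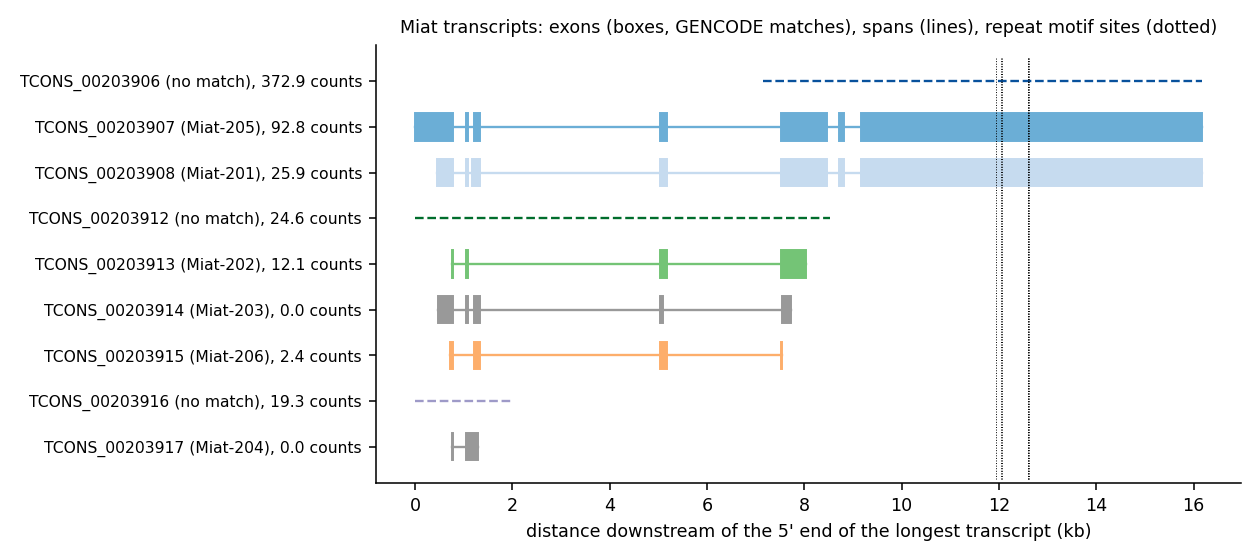
The 9 Miat transcripts drawn to scale by distance in kb downstream of the 5′ end of the longest one, with GENCODE exons as boxes, spans as lines (dashed where no GENCODE transcript matched) and dotted lines at the 6 repeat motif copies. The total count over 9 libraries stands beside each name, from 372.9 for TCONS_00203906 to 0 for TCONS_00203914 and TCONS_00203917, and only the 3 upper transcripts reach the motif copies.

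Miat was a low-abundance locus, with 550.0 counts over all 9 libraries. The library totals over all lncRNAs ran from 1537431 to 2870275, so that 3 counts, the limit that a count of 0 allows, stood for 1.05 to 1.95 CPM (counts per library scaled to one size, here by totals alone). All 3 plus-strand transcripts and 2 of Miat, TCONS_00203914 and TCONS_00203917, had 0 counts in every library, 5 of the 12 transcripts in all. The limit of 3 counts covers counting error only. How reads of shared exons were divided between transcripts is not known, so a 0 for a Miat transcript may also come from that division. The kit keeps strand, but whether counting used it is not stated, and without it reads from Miat and the opposite Gm26953 could not be told apart. Of the remaining 7, 2 passed the filter on low counts, TCONS_00203906 and TCONS_00203907.

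With stearic acid, the Miat locus sum was 104, 80 and 95 counts. With palmitic acid it was 65, 57 and 45 counts, and in control cells 46, 22 and 36 counts. Every sum lay within 0.01 of a whole number, while single transcripts had fractional counts, so the fractions of its transcripts added up to whole reads per library. The 95% Poisson intervals, which cover counting error only, ran from 63.4 to 126.0 counts over the stearic acid libraries, from 32.8 to 82.8 over the palmitic acid libraries and from 13.8 to 61.4 over the control libraries.

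Scaled to library size (CPM, from here on with TMM scaling unless stated), the locus was at 49.4, 53.6 and 39.1 CPM in the stearic acid libraries. It was at 23.8, 21.8 and 19.1 CPM in the palmitic acid libraries and at 22.2, 10.7 and 13.4 CPM in the control libraries. These are levels in bulk RNA, in which fewer cells with the RNA and less RNA per cell cannot be told apart. All 3 stearic acid libraries stood above all 6 others. The choice of the locus by stearic acid against control favours this order, and how many other loci show it was not counted. The palmitic acid and control libraries overlapped, since control replicate 1 lay above palmitic acid replicates 2 and 3.

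**Figure D2:**
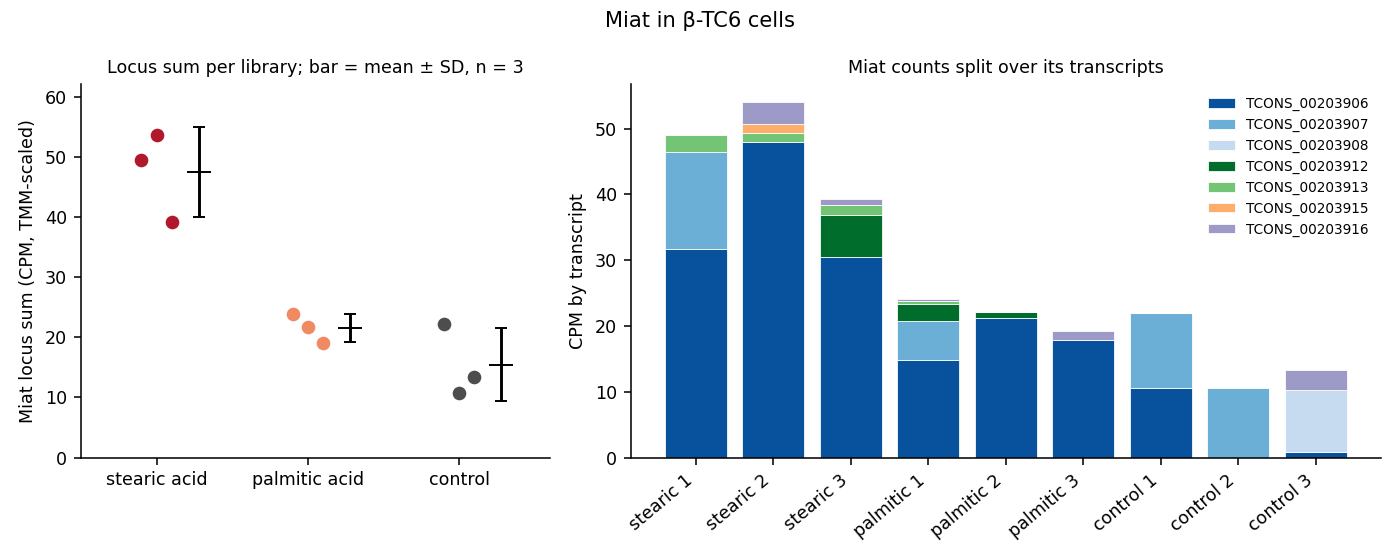
Left, the Miat locus sum in CPM for each library, with the mean ± SD of 3 libraries as a bar beside the points. Right, the same counts divided over the 7 transcripts above 0, scaled by the transcript fit, so totals differ slightly from the left panel. The stearic acid libraries sit between 39.1 and 53.6 CPM, above all palmitic acid and control libraries, an order that the choice of the locus favours.

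Stearic against palmitic acid asks whether the longer of these saturated fatty acids, by a pair of carbon atoms, acts differently at the same dose and time. The locus averaged 47.4 ± 7.48 CPM with stearic acid and 21.6 ± 2.35 CPM with palmitic acid (SD, n = 3 each). The log2 difference was 1.12 ± 0.25 (SE), a 2.18-fold higher level (95% confidence interval 1.52 to 3.12). Its adjusted p was 0.0990 in the quasi-likelihood test of edgeR, adjusted by Benjamini-Hochberg over 3039 loci, so it did not pass the threshold of 0.05. In this comparison 0.0987% of all loci passed, and by log2 difference Miat ranked 50 of 3039. The same stearic acid libraries entered the difference that chose the locus, a choice that favours high values in them, so every p of this comparison leans towards a call. The call depended on the fit: the edgeR adjusted p was 0.0417 when only these 2 groups were fitted, 0.0151 with no filter on low counts and 0.0481 without control replicate 1. It was 0.408 with the Wald test of DESeq2, and edgeR gave 0.0481 to 0.484 when each library was left out in turn.

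Palmitic acid against control asks whether the shorter acid moved the locus. Miat averaged 21.6 ± 2.35 CPM with palmitic acid and 15.4 ± 6.03 CPM in control cells (SD, n = 3 each). The log2 difference was 0.49 ± 0.27 (SE), or 1.40-fold (95% confidence interval 0.953 to 2.07), with an edgeR adjusted p of 0.336. This did not pass, where 5.56% of loci did, and it does not show that palmitic acid left the locus as it was, since the interval reaches 2.07-fold. The same control libraries entered the difference that chose the locus. That choice favours low values in them, so this comparison leans towards a rise as well. Without TCONS_00203906, the transcript of the highest mean count, the direction turned, with a log2 difference of −1.55 (edgeR adjusted p = 0.121). That turn depends on how reads of the shared last exon were divided between transcripts, which is not known. With only the transcripts that hold the last exon, a choice made after the values were seen, the log2 difference was 0.46 (edgeR adjusted p = 0.433).

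For stearic acid against control, the contrast behind the choice of the locus, the levels were 47.4 ± 7.48 CPM with stearic acid and 15.4 ± 6.03 CPM in control cells. The log2 difference was 1.61 ± 0.26 (SE), or 3.06-fold, given as a description, and 11.8% of all loci passed in this contrast, from which nothing is read about Miat. The comparisons share libraries, so their values stand side by side and are not separate evidence. The median log2 difference over all 3039 loci was between −0.02 and 0.02 in each comparison.

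Among the transcripts that hold the last exon, TCONS_00203906 took 67.8% of all Miat counts. With stearic acid it had 66.87, 71.13 and 73.65 counts. It had 40.13, 54.45 and 42.0 counts with palmitic acid, and 22.18, 0 and 2.44 counts in control cells. The libraries of both acids lay above all control libraries, and the stearic acid libraries above the palmitic acid libraries. This order depends on how reads of the shared last exon were divided between transcripts, which is not known. The choice of the locus also favours high counts with stearic acid and low counts in control cells. How many other transcripts separate in this way was not counted.

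On the CPM scale, TCONS_00203906 averaged 36.7 ± 9.81 with stearic acid, 18.0 ± 3.15 with palmitic acid and 3.84 ± 5.89 in control cells (SD, n = 3 each). The log2 difference between palmitic acid and control was 2.27 ± 0.97 (SE), with an edgeR adjusted p of 0.431 over 4426 transcripts. Between stearic and palmitic acid it was 1.03 ± 0.88 (SE), with an edgeR adjusted p of 0.996. Neither passed.

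TCONS_00203907, the full-length Miat-205, varied between libraries within every group. It had 31.28, 0 and 0 counts with stearic acid, 15.99, 0 and 0 with palmitic acid, and 23.82, 21.68 and 0 in control cells. Replicate 1 of each group held counts, and every group had a library at 0. Its log2 difference between palmitic acid and control was −1.84 ± 2.09 (SE, edgeR adjusted p = 0.862). Between stearic and palmitic acid it was 1.28 ± 2.09 (SE, edgeR adjusted p = 0.996).

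TCONS_00203908 (Miat-201), which shares the last exon with these, had 0 counts in all 6 acid libraries and 0, 0.32 and 25.60 counts in the control libraries. Its value came from control replicate 3 alone, a library in which TCONS_00203906 and TCONS_00203907 were at 2.44 and 0 counts. Of the 2 Miat transcripts tested, 0 passed edgeR's test in palmitic acid against control, where 0.407% of all transcripts passed, and 0 passed in stearic against palmitic acid, where 0% did. At an unadjusted p under 0.05 the numbers were 1 (TCONS_00203906) and 0, where 497 and 216 of all 4426 transcripts were under it. With DESeq2 0 passed in either comparison. The authors' deposited tables of changed transcripts hold 0 of the 12 transcripts. They list 17 of 15589 transcripts for stearic against palmitic acid, 189 for stearic acid against control and 81 for palmitic acid against control, so few of any 12 would be listed.

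Counted together, the transcripts with the last exon had 98.15, 71.13 and 73.65 counts with stearic acid, 56.12, 54.45 and 42.0 with palmitic acid, and 46.0, 22.0 and 28.04 in control cells. The stearic acid libraries lay above the others, an order that the choice of the locus favours, and the palmitic acid and control libraries overlapped. In CPM it was 41.6 ± 9.72 with stearic acid, 19.98 ± 1.79 with palmitic acid and 14.4 ± 6.65 in control cells (SD, n = 3 each).

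The transcripts that end before the last exon held few counts. Their sum was 5.86, 8.87 and 21.35 counts with stearic acid, 8.89, 2.55 and 3.0 with palmitic acid, and 0, 0 and 7.96 in control cells. TCONS_00203913 (Miat-202) was the only one above 0 in all stearic acid libraries, with 5.47, 1.87 and 3.58 counts. It had 1.21, 0 and 0 counts with palmitic acid and 0 in every control library, so most of its values lie near the floor of 3 counts.

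TCONS_00203912, with 5 exons, had 15.42 counts in stearic acid replicate 3 and 0 in the other stearic acid libraries. With palmitic acid it had 6.68, 2.55 and 0 counts, and it had 0 in control cells. TCONS_00203916, the 3-exon transcript at the 5′ end, lay between 0 and 5.0 counts with stearic acid, 0 and 3.0 with palmitic acid and 0 and 7.96 in control cells, so its groups overlapped. TCONS_00203915 (Miat-206) had 0.39, 2.0 and 0 counts with stearic acid and 0 elsewhere.

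As a share of Miat counts, TCONS_00203906 made up 64.3%, 88.9% and 77.5% with stearic acid and 61.7%, 95.5% and 93.3% with palmitic acid. In control cells its share was 48.2%, 0% and 6.78%. The shares with either acid lay above all control shares, and those of the acids overlapped. The mean share was 83.5% ± 18.9 with palmitic acid and 18.3% ± 26.1 in control cells (SD, n = 3 each), a difference of 65.2 percentage points. The two-sided exact permutation test gave p = 0.1, the smallest that 3 against 3 libraries allow. Between stearic acid (76.9% ± 12.3) and palmitic acid the difference was −6.62 percentage points (exact permutation p = 0.6). TCONS_00203906 was picked as the transcript with the most counts over all 9 libraries, and these came mainly from the acid libraries. That choice favours a higher share with acid than in control cells. In control cells TCONS_00203907 had the higher mean, 15.2 counts against 8.21 for TCONS_00203906.

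A test of transcript use within loci, edgeR's diffSpliceDGE over 2302 transcripts, gave no call for either tested member. For TCONS_00203906 the adjusted p was 1.00 in both comparisons, with a log2 difference in use of 1.38 between palmitic acid and control cells and of −0.02 between the acids. Over all transcripts 0.0434% and 0.13% passed in these comparisons.

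A pooled share of the 3 transcripts that hold the last exon showed no such separation. Together they took 86.9% ± 8.59 of Miat counts with stearic acid, 91.7% ± 4.81 with palmitic acid and 92.6% ± 12.8 in control cells (SD, n = 3 each). These shares overlapped between all groups, and the difference between palmitic acid and control was −0.90 percentage points (exact permutation p = 1). This pooling was chosen after the values were seen. By FPKM the pooled share was 36.8% ± 8.76 with stearic acid and 67.8% ± 16.5 with palmitic acid, which did not overlap (difference −31.0 percentage points, exact permutation p = 0.1), and 78.7% ± 36.9 in control cells, which overlapped both.

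Shares of FPKM, which set transcripts side by side per length, gave another picture of the same reads. TCONS_00203906 made up 32.4%, 29.0% and 35.1% of Miat FPKM with stearic acid, 36.9%, 83.2% and 69.8% with palmitic acid, and 50.3%, 0% and 3.17% in control cells. The stearic acid libraries lay below the palmitic acid libraries on this scale, with means of 32.2% with stearic acid and 63.3% with palmitic acid (difference −31.1 percentage points, exact permutation p = 0.1), and the palmitic acid and control libraries overlapped. In stearic acid replicate 2, TCONS_00203915, 357 bases long, reached 9.10 FPKM from 2.0 counts, against 5.64 FPKM for TCONS_00203906 from 71.13 counts. The locus sum in FPKM, at 12.94, 19.43 and 10.6 with stearic acid, 4.83, 2.92 and 2.95 with palmitic acid and 2.92, 1.17 and 3.16 in control cells, rests in part on such values.

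**Figure D3:**
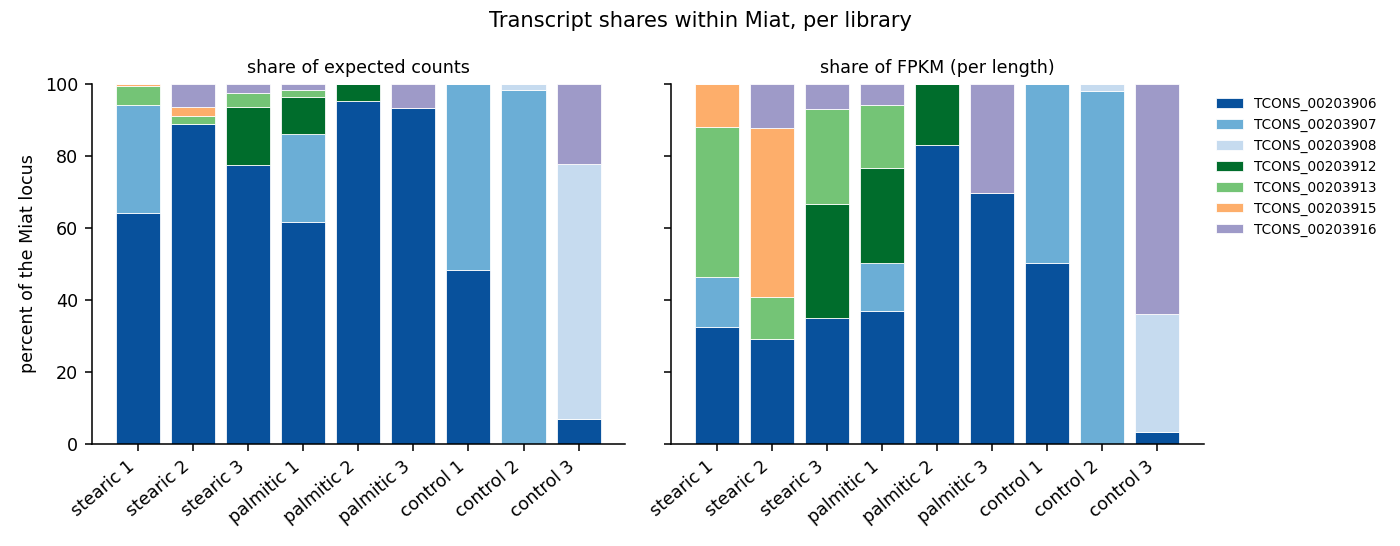
Stacked shares in percent of the 7 Miat transcripts above 0 in each library, of expected counts on the left and of FPKM on the right. TCONS_00203906 takes 61.7% to 95.5% of counts in the acid libraries and 0% to 48.2% in the control libraries, while on the FPKM scale it takes 29.0% to 83.2% and 0% to 50.3%.

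Coding markers of beta cells are not in the lncRNA table, so the cell type could be read only from lncRNAs. Of 12 lncRNAs known from islets, 8 were listed, and these summed, by library totals alone, to 2607 to 2789 CPM with stearic acid, 2841 to 3113 with palmitic acid and 4937 to 5929 in control cells. Of 5 leukocyte lncRNAs 2 were listed, summing to at most 1.03 CPM with stearic acid, 0 with palmitic acid and at most 0.475 in control cells. Of 6 mesenchyme and smooth muscle lncRNAs 4 were listed, summing to 0.413 to 1.03 CPM with stearic acid, 0 to 1.83 with palmitic acid and 0 in control cells. No leukocyte or mesenchyme locus passed the filter on low counts. H19, with 1.0 counts over all libraries, stands on both the islet and the mesenchyme list, so these lists are not separate. The islet list also shares Meg3, Pvt1 and Kcnq1ot1 with the list of nuclear lncRNAs below. The islet sum was lower in all 6 acid libraries than in control cells, and 1 gene carried that difference, Igf2os, antisense to the growth factor gene Igf2. Igf2os was at 1214 ± 184.5 CPM with stearic acid, 1727 ± 120.4 CPM with palmitic acid and 4101 ± 393.0 CPM in control cells (SD, n = 3 each, TMM scaling). The other 7 loci of the list, summed by library totals after the values were seen, overlapped between stearic acid (1404 to 1490 CPM) and control cells (1239 to 1645 CPM), and between palmitic acid (1269 to 1400 CPM) and control cells.

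Around Miat the chromosome held little measured lncRNA. The nearest coding genes are the lens crystallin genes Cryba4, 17098 bases from the 5′ end of Miat, and Crybb1, and coding genes are not in the table. The first locus outside the window on that side, XLOC_116953 (112269747 to 112272624, minus strand), was at 4.75 ± 3.04 CPM with stearic acid, 9.25 ± 3.43 CPM with palmitic acid and 15.8 ± 3.66 CPM in control cells (SD, n = 3 each). It fell with stearic acid against control (log2 difference −1.66, edgeR adjusted p = 0.0152). It did not pass for palmitic acid against control (−0.78, edgeR adjusted p = 0.293) or stearic against palmitic acid (−0.88, edgeR adjusted p = 0.682).

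Gm20636 was the only other tested locus within 0.5 Mb. It was at 8.96 ± 0.481 CPM with stearic acid, 6.79 ± 3.72 CPM with palmitic acid and 5.31 ± 2.52 CPM in control cells (SD, n = 3 each), with edgeR adjusted p of 0.403 to 0.9 over the 3 comparisons. The first locus outside the window on the other side, 1700016B01Rik, had 0 counts.

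Miat belongs to the lncRNAs kept in the nucleus, and a list of 20 others was set beside it, of which 10 loci were tested. With palmitic acid against control, 2 rose, 0 fell and 8 did not pass, where 3.69% of all loci rose and 1.88% fell. Pvt1, the lncRNA next to Myc, rose by 0.66 on the log2 scale (edgeR adjusted p = 0.00326) and Trp53cor1, a p53 target, by 1.12 (edgeR adjusted p = 0.0102). With stearic against palmitic acid, 0 of the 10 passed, where 0.0987% of all loci did, so the count says nothing particular of the list. With stearic acid against control 3 rose, Pvt1 (0.97, edgeR adjusted p = 2.12e-05), Trp53cor1 (1.53, edgeR adjusted p = 0.000336) and 1 of 2 loci of the X-linked Firre (XLOC_161021, 0.83, edgeR adjusted p = 0.0152), and 0 fell. In that comparison 6.38% of all loci rose and 5.4% fell.

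Between the acids, the abundant Malat1 differed by 0.04 and Neat1, the scaffold of paraspeckles, by 0.17 on the log2 scale, with edgeR adjusted p of 0.965 and 0.838. The median log2 difference of the list was 0.20 for stearic against palmitic acid, with 0.01 over all loci. For palmitic acid against control it was 0.27, with −0.02 over all loci.

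**Figure D4:**
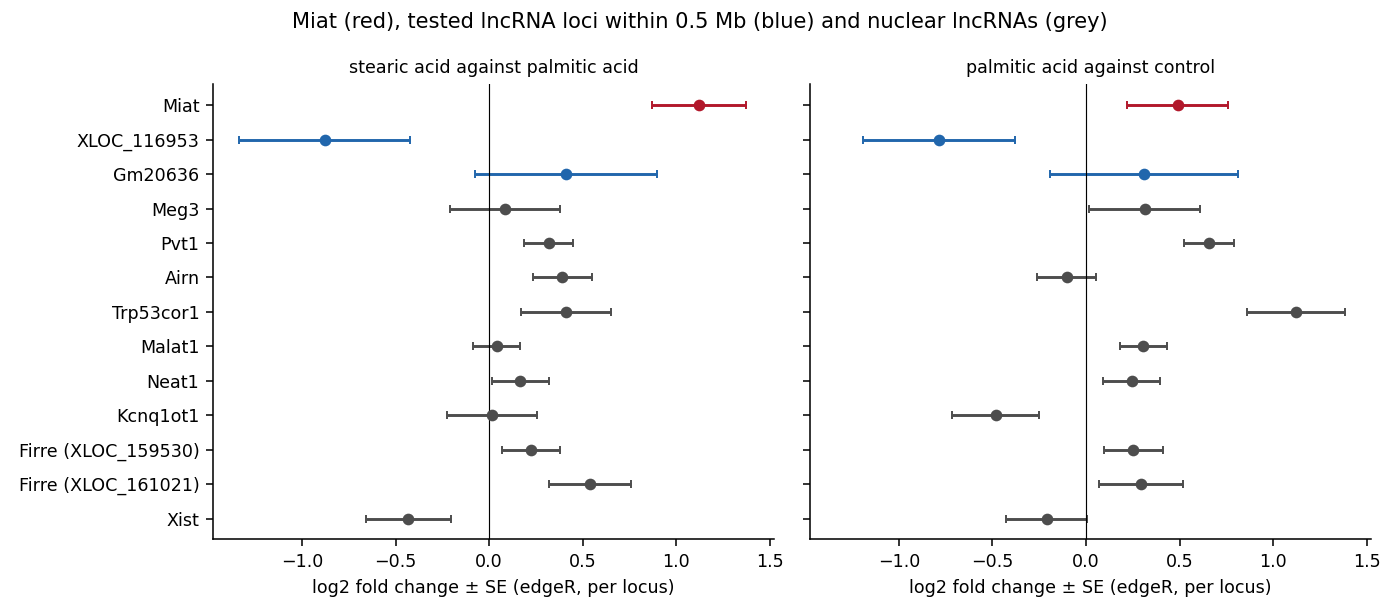
Log2 fold change ± SE per locus from the edgeR fit, for stearic against palmitic acid (left) and palmitic acid against control (right). Miat, at 1.12 and 0.49, is set above the 2 tested loci within 0.5 Mb and 10 nuclear lncRNA loci, of which Firre has 2.

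By Pearson correlation of log2(CPM + 1) over the 9 libraries, 16 of 3038 other loci had r above 0.9 with Miat. The 9 libraries fall into 3 groups, so r can follow differences between groups alone, and this is a description. The most like was an unnamed locus on chromosome 10, XLOC_012438 (r = 0.975), at 21.6 ± 2.46 CPM with stearic acid, 12.97 ± 0.221 CPM with palmitic acid and 11.1 ± 1.30 CPM in control cells (SD, n = 3 each). It was followed by A830052D11Rik (r = 0.953), the unnamed XLOC_053401 on chromosome 15 (r = 0.951), the lncRNA locus listed under Icam2 on chromosome 11 (r = 0.945) and Gm11816 on chromosome 4 (r = 0.939). Gm11816 was at 32.0 ± 5.80 CPM with stearic acid, 19.1 ± 4.46 CPM with palmitic acid and 13.2 ± 4.32 CPM in control cells. All 5 had their highest mean with stearic acid and their lowest in control cells, an order that picking by likeness to Miat all but sets in advance.

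The loci least like Miat were the one listed under Rab23 (r = −0.973), 9530051G07Rik (r = −0.966) and Gm22513 (r = −0.953). Their means ran the other way, lowest with stearic acid and highest in control cells, which picking by unlikeness to Miat likewise favours. For Gm22513 they were 1487 ± 107.0 CPM with stearic acid, 1848 ± 86.1 CPM with palmitic acid and 2157 ± 369.9 CPM in control cells (SD, n = 3 each).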

How the data were processed

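Long non-coding RNA was sequenced from 9 libraries of β-TC6 cells with a strand-directional kit, per the labels' protocols. Per the submitters' processing notes, bcl2fastq 2.17.1.14, Trimmomatic 0.30, HISAT2 2.0.1, HTSeq 0.6.1, DESeq and the build mm10 were used, with no role given. Which assembler, counting tool and strand setting gave the expected counts is not stated there, so how reads of shared exons were divided between transcripts is not known. The authors deposited expected counts and FPKM per transcript, per the file headers. The authors' deposited tables of changed transcripts give log2 fold changes and adjusted p-values, and were used only to look up the Miat transcripts.

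Expected counts were summed per locus of the table, rounded to whole numbers and fitted with edgeR 4.0.16 (R 4.3.3) over all 9 libraries, with filterByExpr, TMM scaling and the quasi-likelihood test, and p-values were adjusted by Benjamini-Hochberg over all loci or transcripts tested, with a threshold of 0.05. Rounded counts of single transcripts were fitted likewise, and use within loci was tested with diffSpliceDGE. DESeq2 1.42.0 was an alternative. Shares were compared with two-sided exact permutation tests in R, and Poisson intervals were computed with SciPy 1.17.1. The fits were tested on simulated data. Gene symbols came from GENCODE M21, which named 10462 of the 10600 Ensembl identifiers.

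The locus and the lists of other lncRNAs were chosen with earlier results of these data known. Outside the locus, text names the 5 loci most like and the 3 least like Miat, tested loci within 0.5 Mb, and list members that passed, with Malat1 and Neat1 added after their values were seen. Library totals of 1537431 to 2870275 counts limit precision, and intervals and floors cover counting error only.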

Additional observations from a re-analysis of the deposited data

How the results depend on the processing

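For the locus sum, 18 of 19 alternatives for palmitic acid against control kept the direction and stayed short of the threshold, as did 16 of 19 for stearic against palmitic acid. Of these alternatives, 2 concerned only the plus-strand transcripts, which had 0 counts in every library, and so had to return the main fit. The exceptions between the acids passed edgeR's threshold, with log2 differences of 1.10 with no filter on low counts (adjusted p = 0.0151), 1.12 with only those 2 groups fitted (adjusted p = 0.0417) and 1.12 without control replicate 1 (adjusted p = 0.0481). Without TCONS_00203906, which holds 67.8% of Miat counts, the remaining transcripts differed by −1.55 for palmitic acid against control (edgeR adjusted p = 0.121) and by −0.10 for stearic acid against control. Both values depend on how reads of the shared last exon were divided between transcripts. With only the transcripts that hold the last exon, the log2 difference was 0.46 for palmitic acid against control (edgeR adjusted p = 0.433). It was 1.065 for stearic against palmitic acid (edgeR adjusted p = 0.234) and 1.52 for stearic acid against control. Leaving out each library gave log2 differences of 0.30 to 0.82 for palmitic acid against control, 1.01 to 1.25 for stearic against palmitic acid and 1.41 to 1.95 for stearic acid against control. The lowest and highest for palmitic acid against control came without control replicate 2 and without control replicate 1. For the share of TCONS_00203906 these ranges were 56.0 to 80.1 percentage points for palmitic acid against control and −17.5 to −0.31 for stearic against palmitic acid. Pooling the transcripts with the last exon, chosen after seeing the data, reversed the share difference between palmitic acid and control to −0.90 percentage points. By share of FPKM it was 45.5 percentage points, and −31.1 for stearic against palmitic acid (exact permutation p = 0.2 and 0.1). No alternative called a Miat transcript.

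With the replicate number as a block, the log2 differences were 0.50 for palmitic acid against control (edgeR adjusted p = 0.306), 1.13 for stearic against palmitic acid (edgeR adjusted p = 0.0942) and 1.63 for stearic acid against control, with 0 transcripts called, so the block changed no call. Deviations of same-numbered libraries correlated between −0.0421 and 0.0827, and those of differently numbered libraries between −0.0639 and 0.0679. These ranges overlap and show no clear pairing, but with 3 libraries per group they cannot exclude one. At the depth of these libraries, 3 counts equal up to 1.95 CPM, which limits what can be said of the short transcripts.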

Other observations

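Among 7 tested loci of the list of islet and beta-cell lncRNAs, Igf2os fell with palmitic acid against control by 1.25 on the log2 scale (edgeR adjusted p = 9.25e-07). With stearic acid against control it fell by 1.76 (edgeR adjusted p = 1.1e-09). Pvt1, also on this list, rose in both of these comparisons, and 1810019D21Rik rose with stearic acid against control (log2 difference 1.45, edgeR adjusted p = 0.021). Of the loci on this list 0 passed between stearic and palmitic acid. Counts on the list read against 5.56% of loci called for palmitic acid and 11.8% for stearic acid against control.

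Of the list of 18 lncRNAs known from neurons and retina, where Miat is best known, 5 loci were tested and 0 passed edgeR's test in any comparison, where 5.56% of all loci passed for palmitic acid against control, 0.0987% for stearic against palmitic acid and 11.8% for stearic acid against control. With 5 loci, 0 calls is near these shares. Their median log2 difference was −0.10 for palmitic acid against control, 0.09 for stearic against palmitic acid and 0.40 for stearic acid against control, where the medians over all loci were −0.02, 0.01 and 0.01.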
